A study of Mus musculus with 34 samples.

Results

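Mice fed a high fat diet for a second generation in a row (HF1) were set directly against mice of the first high fat generation (HF0) on 2 two-colour arrays of epididymal fat, out of 34 arrays in the series. Parents on the normal diet (STD) gave HF0, HF0 gave HF1, and both of these generations ate the high fat diet. The 2 arrays are a dye swap of experiment 2, found by their titles: one carried HF1 in Cy5 and HF0 in Cy3, the other the reverse. RNA of experiment 2 was extracted with Qiagen reagents. The labels name no genotype, age or animal behind an extract, and do not say whether both arrays, or other pairings of experiment 2, hold the same extracts. HF1 and HF0 were therefore taken as 1 extract each, n = 1, and no difference between them was tested. HF3 and HF4 are later generations of the same high fat line, and HF1-REV had the parents of HF1 but ate the normal diet. Their values are given below where their arrays also carry HF1 or HF0. In addition, all other arrays of experiment 2 enter the dye effect, and HF4 over HF3 enters the closing sections.

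White fat stores triglyceride in adipocytes, which take up fatty acids from blood through the capillary wall and also make them from glucose. Under a high fat diet the tissue grows, synthesis of fatty acids from glucose usually falls, and macrophages and other immune cells gather in it. The epididymal depot lies against the epididymis and testis in male mice, and transcripts of these organs can enter a dissected fat sample.

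Each value is a log ratio, read as log2 although no source gives the base, coded as Cy5 over Cy3 and turned so that HF1 stands over HF0. No source used here states which dye was the numerator. A positive value means more RNA in HF1 if it was Cy5 and less if it was Cy3, so genes are described by their side, positive or negative, and not as higher or lower. Relative statements hold on either reading. In bulk tissue, fewer cells of a type and less RNA per cell cannot be told apart.

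The arrays of the swap differed widely. Of 22879 features (genes, plus probes without a single gene), 54.1% had the same sign on both arrays, and the correlation between the turned arrays over features was 0.04. The distance of either array from their mean had a median of 0.17, and its 90th percentile was 0.50. That distance moved with the dye. Its signed value correlated at 0.71, over features, with the dye effect of the other 20 arrays of experiment 2. With that dye effect subtracted from both arrays, 60.9% of the features had the same sign and the correlation of the arrays was 0.37. The subtraction leaves the mean of the swap as it is. Features are not independent replicates, and the arrays may share their extracts, so these values describe the arrays only.

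**Figure D1:**
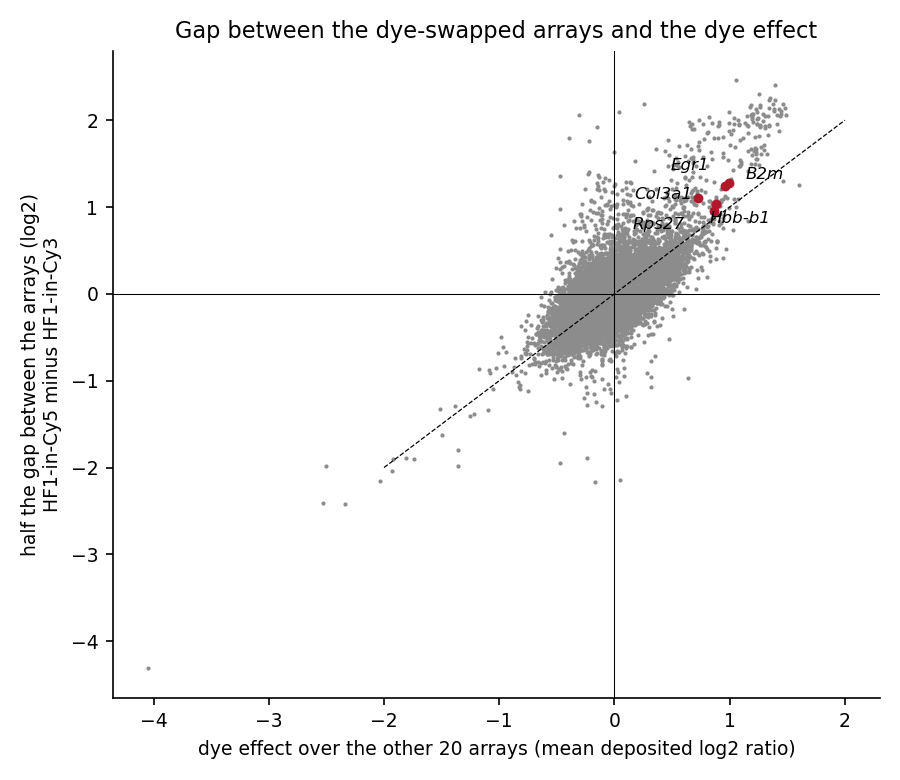
For each gene, the vertical axis gives the array with HF1 in Cy5 minus the array with HF1 in Cy3, divided by 2, and the horizontal axis the mean deposited log2 ratio over the other 20 arrays of experiment 2. Points follow the dashed line of equality, and Hbb-b1, Egr1, Col3a1, B2m and Rps27, marked in red, lie at the upper right, with wide gaps and a dye effect of the same sign.

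A gene was counted where both arrays lay past 0.5 on the same side. Of 18617 genes with a symbol, 762 lay on the positive side, which is 4.09%, and 707 on the negative side, which is 3.8%. These shares are the background for every count of genes past the threshold on both arrays below. The median over all genes was -0.01, and 48.2% of them had a positive mean.

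**Figure D2:**
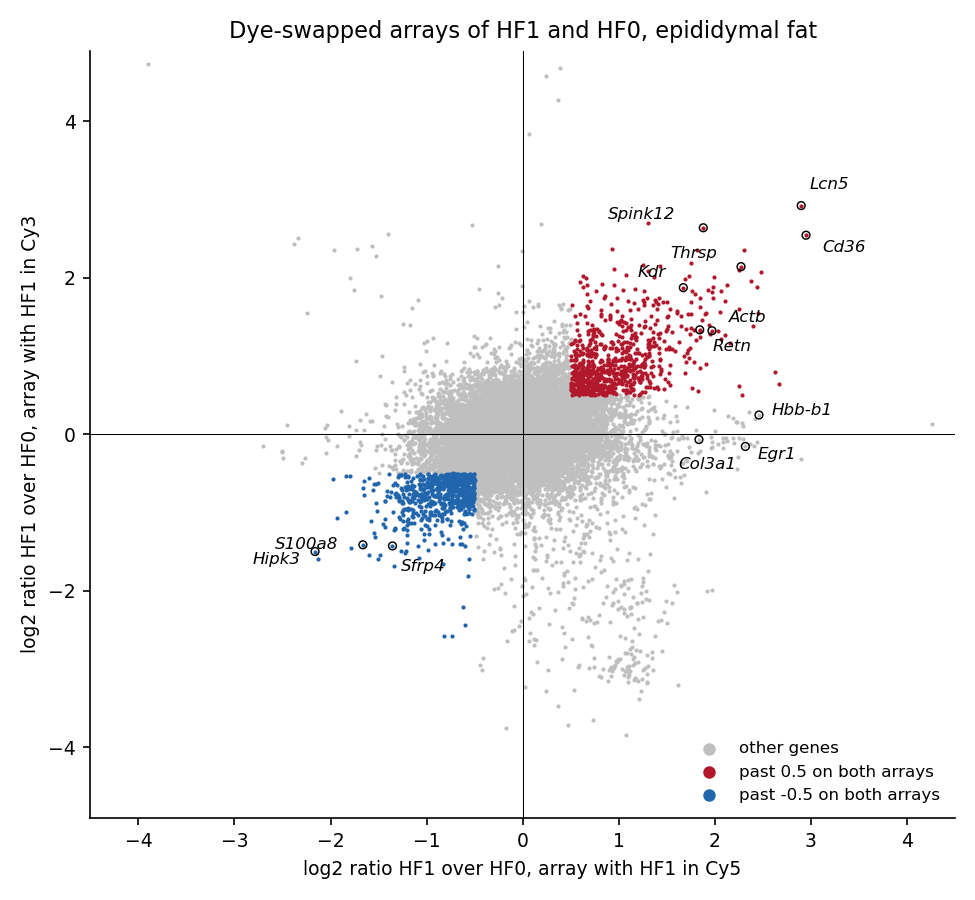
Each point is a gene, with its log2 ratio HF1 over HF0 on the array with HF1 in Cy5 (horizontal) and in Cy3 (vertical). Red points are the 762 genes past 0.5 on both arrays and blue points the 707 past -0.5; Hbb-b1, Egr1 and Col3a1 lie far to the right but near 0 on the vertical axis.

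The groups labelled HF1 and HF0 could also be set against each other on other arrays, by adding HF1 over HF3 to HF3 over HF0, or the same through HF4. Of the 762 genes counted on the positive side, 661 (86.7%) also lay past 0.5 on the route through HF3 and 603 (79.1%) on the route through HF4. Of the 707 on the negative side, 319 (45.1%) and 298 (42.1%) did so, while 630 (89.1%) had the same sign on both routes. On the positive side 708 (92.9%) did. Over all 22879 features, 2366 lay past 0.5 on the positive side and 2454 on the negative side through HF3. Through HF4, 2855 and 1865 did. The threshold was set here on the route value alone, so the shares given above are not the background of these counts. These routes hold the same labelled groups and were not taken as other animals. The routes were also averaged with HF3 over HF0 and HF4 over HF0 taken from experiment 1, called HF0 of experiment 1 below. This average joins HF3 and HF4 of experiment 1 to those of experiment 2 as if they were alike, which was not tested. On this average 432 (56.7%) of the positive genes and 254 (35.9%) of the negative genes lay past 0.5 on their side. Over all features, 1692 and 1269 did.

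The sequences just before the annotated start of 4 genes counted on the positive side are printed to show what lies upstream of a fatty acid carrier, a lipogenic gene, an adipocyte hormone and an epididymal gene. Each is the stretch of 100 bases before the start on the gene's strand, from RefSeq (GRCm38.p6), in lower case. Capitals mark the CCAAT box (CCAAT, or ATTGG on the other strand) and the TATA box (TATAAA, or TTTATA).
Cd36, chr5:17835897-17835996, minus strand: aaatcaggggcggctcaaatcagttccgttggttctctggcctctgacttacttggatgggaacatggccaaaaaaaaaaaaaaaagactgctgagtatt
Thrsp, chr7:97417551-97417650, minus strand: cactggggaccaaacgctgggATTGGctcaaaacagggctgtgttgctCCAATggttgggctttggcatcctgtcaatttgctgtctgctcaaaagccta
Retn, chr8:3655670-3655769, plus strand: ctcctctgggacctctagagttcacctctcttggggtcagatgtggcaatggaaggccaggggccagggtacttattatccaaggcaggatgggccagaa
Lcn5, chr2:25657852-25657951, plus strand: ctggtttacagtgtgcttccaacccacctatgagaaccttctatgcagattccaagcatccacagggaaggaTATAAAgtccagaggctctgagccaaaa
Thrsp holds 2 CCAAT boxes, once on each strand, and Lcn5 holds 1 TATA box. Over 32851 promoters of the same length, 18.9% hold a CCAAT box and 5.56% a TATA box. Neither set of letters is in the windows of Cd36 and Retn, which says only that these letters are not there.

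Adipocyte genes lay mostly on the positive side. Of 27 measured members of the lipid storage and adipocyte list, 22 had a positive mean, 8 were past the threshold on the positive side and 1 on the negative side, with a list median of 0.33. Cd36, the carrier that brings long-chain fatty acids into the cell, read 2.95 with HF1 in Cy5 and 2.54 with HF1 in Cy3. Retn, the adipocyte hormone resistin, read 1.84 and 1.33. Both arrays placed these genes far from 0, and the routes did as well: 2.83 and 2.65 for Cd36, and 1.62 and 1.65 for Retn. Lpin1, which makes diacylglycerol, had a mean of 0.88, as did Aqp7, the glycerol channel of adipocytes. Plin4, Pnpla2, Lipe and Cav1, which coat the lipid droplet, cut triglyceride and diacylglycerol, and form caveolae, were also counted on the positive side.

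The lipid droplet protein Plin2 stood apart at -0.56 and -0.82. Its route values, -0.06 and 0.17, lay near 0. Several well-known adipocyte genes were not past the threshold on both arrays. Adipoq, the hormone adiponectin, read -0.56 and 0.63. Fabp4, the abundant fatty acid binding protein, read 1.96 and -0.03. Pparg, the receptor that drives adipocyte differentiation, read 0.42 and 1.66, so that both arrays were positive and 1 passed the threshold. Lep, the hormone leptin, read 0.43 and 0.63, with routes of 0.58 and -0.18.

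Fatty acid synthesis was mixed. Of 22 measured lipogenic genes, 4 were counted on the positive side and 1 on the negative side, with a median of 0.09. Thrsp, a regulator of lipogenesis, read 2.27 and 2.14. Acly, which supplies acetyl-CoA from citrate, read 1.70 and 1.35, and Scd1, the desaturase that makes oleate, read 1.32 and 1.09. Srebf1, the transcription factor of the pathway, had a mean of 0.88. Fasn, the fatty acid synthase itself, read -0.68 and 0.27 and was not counted. The desaturase Fads1 had a mean of -0.57. Thus the genes on the positive side surround a synthase whose arrays disagreed. Of 18 cholesterol synthesis genes and 13 genes of thermogenesis, 0 were counted on either side. Ucp1, the uncoupling protein of brown fat, read 0.77 and -0.22.

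Among genes of fatty acid oxidation, Pdk4, the kinase that shuts pyruvate out of the citrate cycle, was among the leading negative genes at -1.79 and -1.45. The oxidation enzymes Echs1, Hadhb and Eci1 lay on the positive side with means of 1.00, 0.87 and 0.79. Their list of 23 held 3 genes counted on the positive side and 1 on the negative, with 9 positive means and a list median of -0.17. The list median was 0.09 with HF1 in Cy5 and -0.21 with HF1 in Cy3. Of 33 respiratory chain genes, 5 were counted on the positive side and 0 on the negative, while the list median lay at 0 to within 0.01. Ndufa4 had a mean of 1.56, and the succinate dehydrogenase subunits Sdhc and Sdhb had means of 1.16 and 1.10. Hilpda, a lipid droplet protein that responds to fatty acids and low oxygen, read -1.34 and -1.68.

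Blood vessel endothelium had the largest share on the positive side among the 39 lists. Of 24 measured markers, 9 were counted on the positive side (37.5%) and 1 on the negative side, with a median of 0.43, the highest of the lists. Gpihbp1, which holds lipoprotein lipase on the capillary wall, read 2.06 and 1.56. Kdr, a receptor for vascular endothelial growth factor, read 1.67 and 1.87. Pecam1, the junction protein, read 1.02 and 1.45, and Cldn5, the tight junction claudin, read 1.09 and 1.08. On these markers both arrays were on the positive side. Flt1, Icam2, Tie1, Sox18 and Egfl7 were also counted. Other defining markers were not past the threshold: Cdh5 read 0.02 and 0.02, Vwf -0.23 and -0.30, and Tek 0.01 and -0.47. Selp, the selectin that activated endothelium and platelets show to leukocytes, read -0.82 and -1.65. The endothelial markers thus did not share a common value.

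**Figure D3:**
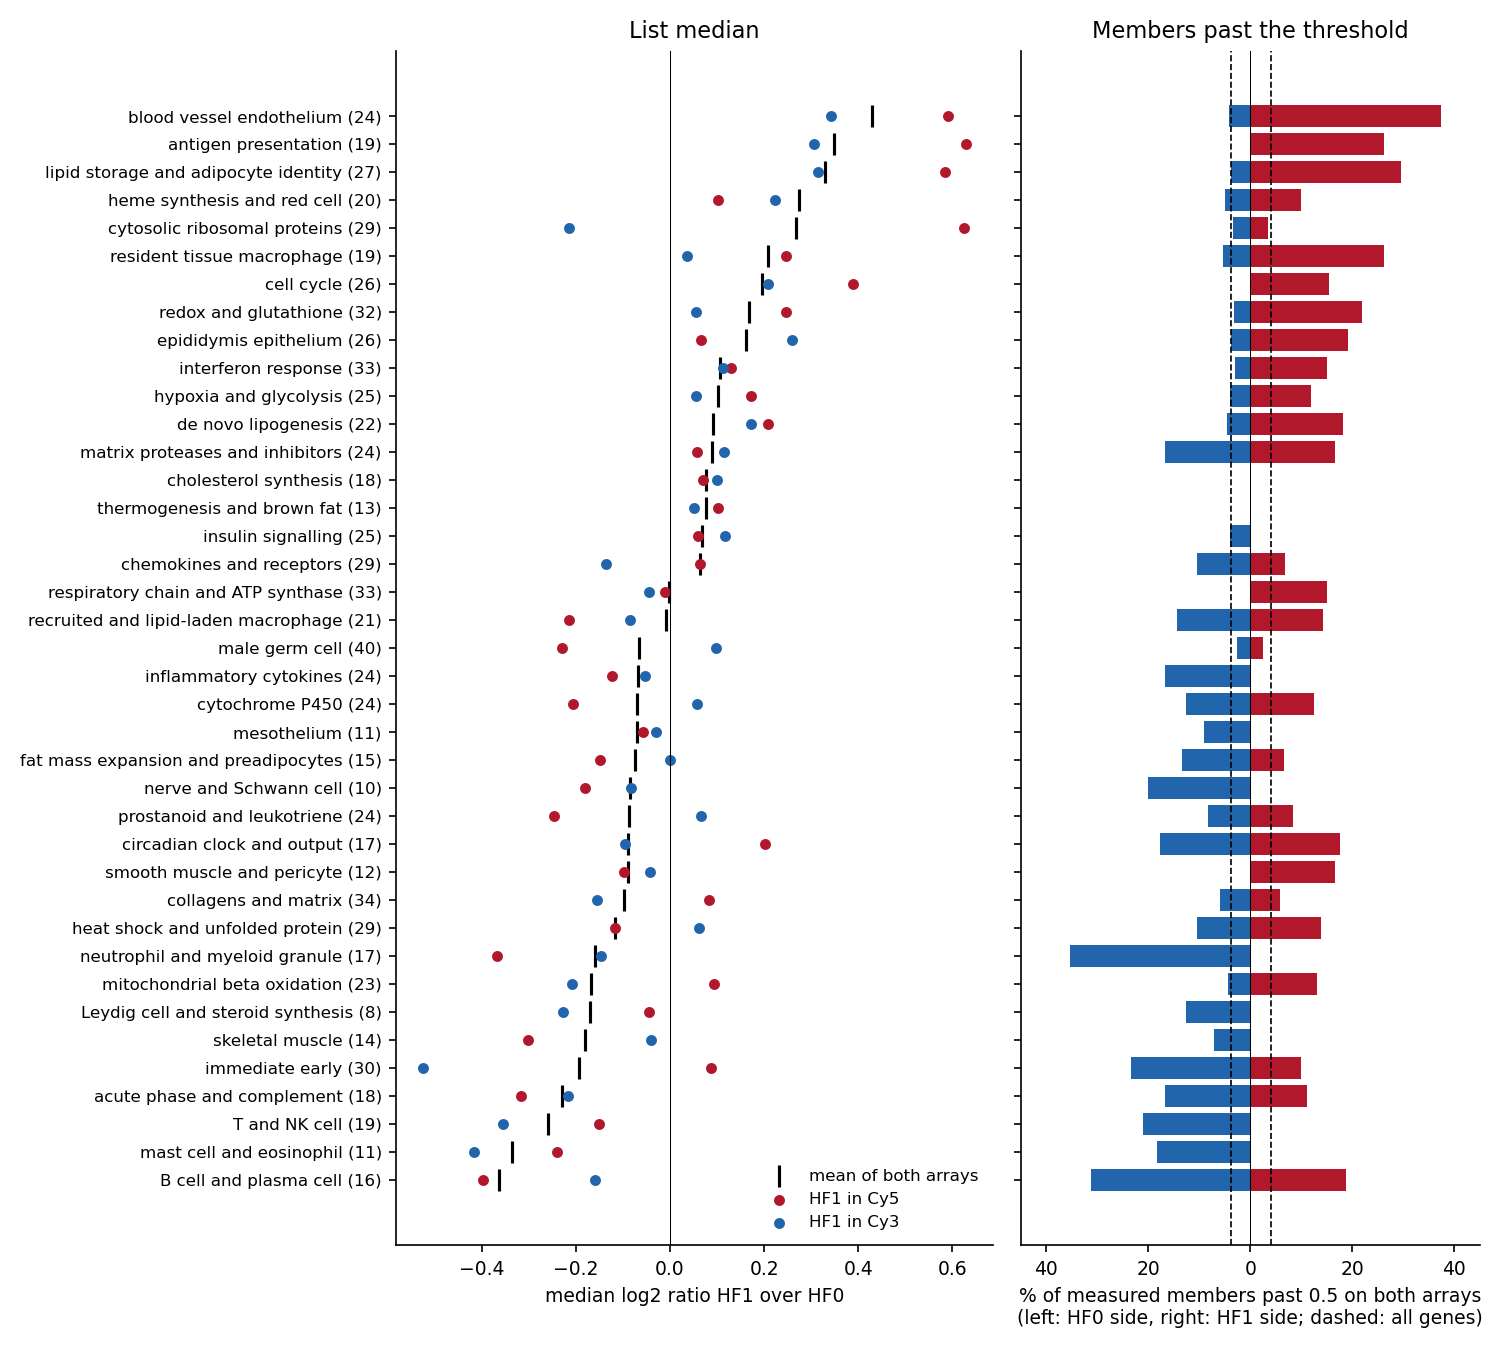
Left, the median log2 ratio HF1 over HF0 of each of 39 gene lists on each array (coloured points) and in the mean of both (bars), with the number of measured members in brackets. Right, the percent of measured members past 0.5 on both arrays, positive side to the right, beside dashed lines at 4.09% and 3.8% for all genes; endothelium reaches 37.5% on the positive side and neutrophil genes 35.3% on the negative side.

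Neutrophil and myeloid granule genes lay mainly on the negative side: 0 of 17 were counted as positive and 6 as negative, with a median of -0.16. Positive means were held by 5 of the 17, up to 0.62. S100a8 and S100a9, the paired calcium-binding proteins of neutrophils, read -1.66 and -1.41, and -1.60 and -1.54. Ltf and Camp, the granule proteins lactoferrin and cathelicidin, had means of -0.90 and -0.95. Ctsg and Il1r2 were the other members counted. The myeloperoxidase gene Mpo read 1.98 and -1.99, so its arrays opposed each other.

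Lymphocyte genes also lay mainly on the negative side. Of 19 T and NK cell genes, 0 were counted as positive and 4 as negative, with a median of -0.26. Il7r, the interleukin-7 receptor, read -1.08 and -1.58, Ccl5 had a mean of -0.97, and Nkg7 had a mean of -0.91. The invariant chains of the T cell receptor complex were not counted: Cd3d read -0.14 and -0.30, Cd3e -0.36 and -1.14, and Cd3g -0.71 and -0.20. Of 16 B and plasma cell genes, 5 were counted as negative and 3 as positive. The B cell receptor chain Cd79b read -1.03 and -1.27, and Pou2af1, a B cell coactivator, read -1.08 and -0.92. The positive members were Jchain, which joins secreted antibodies, at 1.68 and 1.00, the plasma cell factor Xbp1 at a mean of 0.89, and Cd74 at 0.95. P2ry10, a receptor of lymphoid cells, was the most negative of all counted genes, at -2.14 and -1.60. The mast cell protease Mcpt4 read -1.50 and -1.59, and the IgE receptor chain Fcer1a had a mean of -0.96; these were the 2 negative genes of 11 in the mast cell and eosinophil list.

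Macrophage genes did not share a side. Of 19 markers of resident macrophages, 5 were counted as positive and 1 as negative. The complement chains C1qc and C1qa had means of 1.52 and 1.24 and the folate receptor Folr2 a mean of 1.36, whereas the haemoglobin scavenger receptor Cd163 read -1.19 and -0.67. Of 21 markers of recruited and lipid-laden macrophages, 3 were counted on each side. Lyz1, Cd9 and Ctsd had means of 1.89, 1.80 and 1.54, and Cd14, Laptm5 and Trem2 had means of -0.67, -0.63 and -0.51. Cd68 and Adgre1, common macrophage markers, were not counted, with means of -0.01 and -0.40. Mmp12, a macrophage elastase, read -0.48 and -0.41.

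Antigen presentation genes were counted on the positive side in 5 of 19 cases and on the negative side in 0, with a median of 0.35. The class II genes H2-DMa and H2-Aa had means of 1.43 and 1.16, and the class I gene H2-T23 a mean of 1.06. The class I light chain B2m read 2.41 and -0.15. Of 33 interferon response genes, 5 were counted as positive and 1 as negative. Bst2, the membrane tether of budding virus, read 1.73 and 2.02, Rsad2 had a mean of 1.10 and Ifitm1 a mean of -0.88. Of 24 inflammatory cytokine genes, 0 were positive and 4 were negative. Arg1, which breaks down arginine in alternatively activated macrophages, read -1.84 and -0.99, and the alarmin Il33 had a mean of -0.94. Tnf and Il6 were not counted, with means of -0.12 and -0.07, and Ccl2 read 1.45 and -0.58.

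Genes tied to fat mass expansion and to the matrix were divided. Sfrp4, a secreted inhibitor of Wnt signalling, read -1.35 and -1.43, and Ccn5, another secreted Wnt target, read -1.13 on both arrays. Of their list of 15, 1 was counted as positive and 2 as negative. Npr3, the clearance receptor for natriuretic peptides, read 0.10 and 0.43 over 2 probes with means of -0.20 and 0.73. Mest, which is raised in expanding adipocytes, lay on the positive side at 0.80 and 1.31. Of 24 matrix proteases and inhibitors, 4 were counted on each side. Adamts5, an aggrecanase, read 2.31 and 2.35, and Timp4, an adipose inhibitor of matrix proteases, had a mean of 1.25. The plasminogen activator Plat had a mean of -1.06, and the stromelysin Mmp3 read -1.12 and -0.88. Of 34 collagen and other matrix genes, 2 were counted as positive, Col1a1 and Lum, and 2 as negative, Lamb1 and Bgn. Col1a1 had a mean of 0.96, while Col3a1 read 1.83 and -0.07.

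Of 30 immediate early genes, 3 were positive and 7 negative, with list medians of 0.09 on the array with HF1 in Cy5 and -0.52 on the other. Fosl1 and Egr2, transcription factors of this class, had means of -1.35 and -1.16. Gadd45g and Klf6 had means of 1.31 and 1.20, the latter over 2 probes with means of 0.38 and 2.03. In the circadian list, the PAR bZIP output factors lay together on the negative side: Dbp read -0.79 and -0.81, Tef -0.91 and -0.78, and Hlf -0.74 and -0.62. Arntl, the clock activator BMAL1, read 0.84 on both arrays, and Rora and Per1 had means of 1.25 and 0.75. The list thus held 3 genes counted on each side among 17.

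Of 20 measured genes of heme synthesis and the red cell, 2 were counted as positive and 1 as negative, all in heme synthesis. Alas2, the erythroid enzyme of the first step, read 1.50 and 1.08, and Fech, the enzyme of the last step, read 1.54 and 1.60. Alas1, the form of other tissues, had a mean of -0.54. The globins Hba-a1 and Hbb-b1 read 2.29 and 2.46 with HF1 in Cy5 but 0.11 and 0.25 with HF1 in Cy3. Their routes were 1.22 and 1.03 for Hba-a1, and 1.14 and 1.19 for Hbb-b1. Each of these globins has near-identical copies, and its probe may also read transcripts of those copies.

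The globins were part of a wider pattern. In all, 172 genes lay above 1 with HF1 in Cy5 and within 0.3 of 0 with HF1 in Cy3, against 63 genes in the reverse case. The 172 genes are 0.924% of those with a symbol. They included 6 of 29 measured ribosomal proteins, 4 of 34 collagens and matrix genes, and 4 of 30 immediate early genes, Egr1 among them at 2.31 and -0.15. The 172 genes had a median dye effect of 0.29 on the other 20 arrays, and medians of 0.34 and 0.23 on the routes through HF3 and HF4. They were chosen after their values were seen. The files give no spot intensities, so the part of signal level in this pattern was not tested. The ribosomal protein list had medians of 0.63 and -0.22 on the 2 arrays, which lie on opposite sides. The median of the means was 0.27, and the route medians were 0.52 and 0.31.

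**Figure D4:**
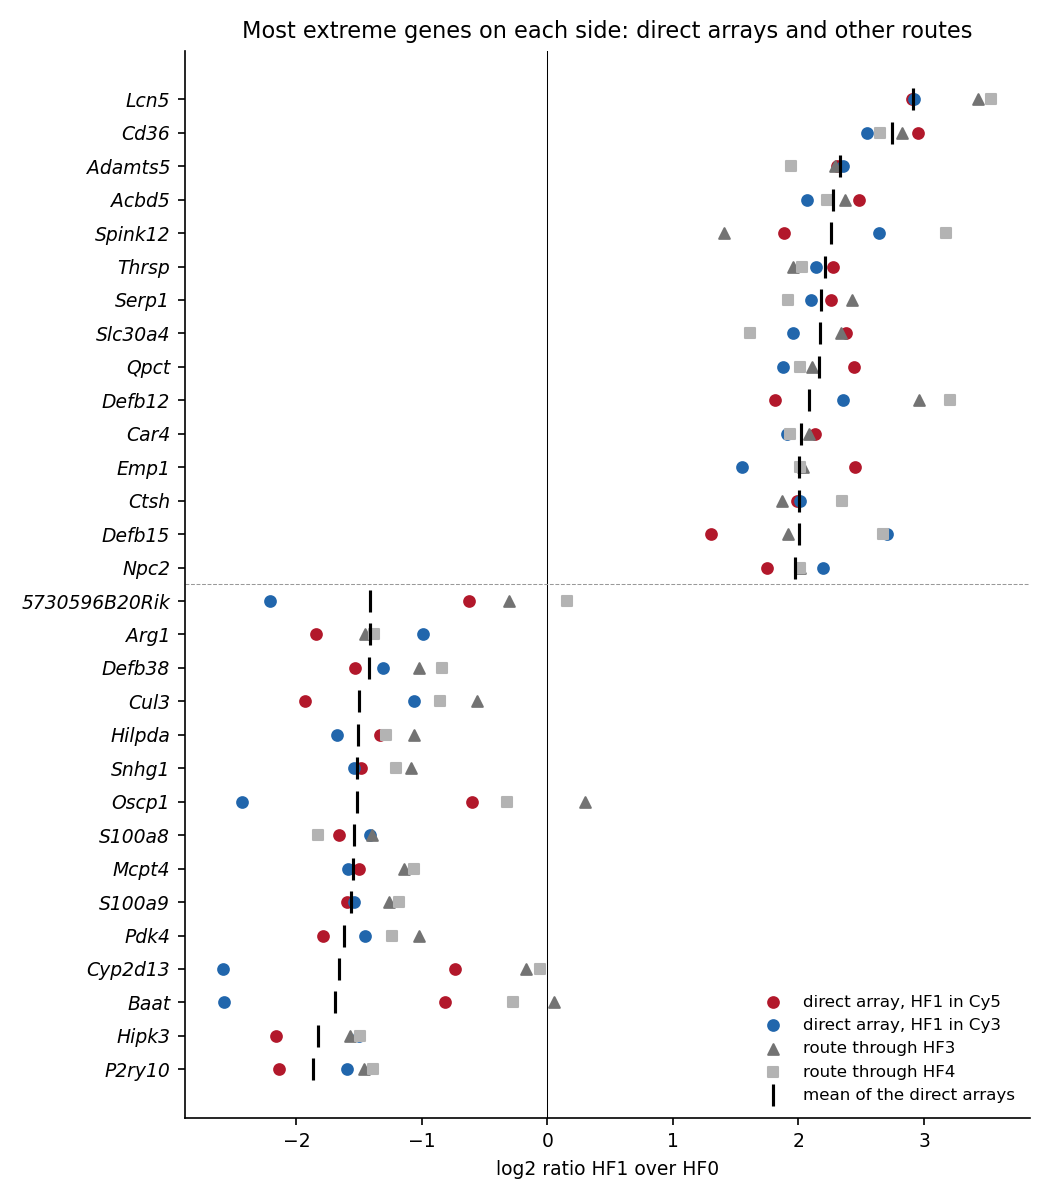
Log2 ratio HF1 over HF0 of the 15 most positive and the 15 most negative counted genes, on both direct arrays (circles), as their mean (bars) and on the routes through HF3 (triangles) and HF4 (squares). All 15 positive genes lie beyond 1.4 on both routes, while Baat, Cyp2d13, Oscp1 and 5730596B20Rik, with array readings below -2.2 only when HF1 was in Cy3, lie within 0.33 of 0.

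Of the 15 most positive genes, all lay on the positive side on both routes, from 1.41 to 3.43 through HF3 and from 1.61 to 3.54 through HF4. On the averaged routes with HF0, HF3 and HF4 of experiment 1 they ranged from 0.44 to 2.12, with a median of 1.27. Besides those already given, they included Acbd5, a peroxisomal membrane protein, at 2.48 and 2.07, and Serp1, an endoplasmic reticulum stress protein, at 2.26 and 2.10. The zinc carrier Slc30a4 read 2.38 and 1.96, and Qpct, which forms N-terminal pyroglutamate, read 2.45 and 1.88. Car4, a carbonic anhydrase of capillary walls, had a mean of 2.02, as against 2.00 for Emp1, a membrane protein, and for Ctsh, a lysosomal protease. Npc2, which carries cholesterol out of lysosomes, had a mean of 1.97.

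On the negative side, the 15 leading genes were less uniform across arrays. Hipk3, a protein kinase, read -2.16 and -1.50, with routes of -1.57 and -1.50. Snhg1, a small nucleolar RNA host gene, read -1.49 and -1.54, and Cul3, a ubiquitin ligase scaffold, read -1.93 and -1.07. In contrast, Baat, which conjugates bile acids, read -0.82 and -2.57, and its routes were 0.054 and -0.27. Cyp2d13 read -0.74 and -2.58 with routes of -0.17 and -0.06, and Oscp1 read -0.60 and -2.43 with routes of 0.30 and -0.32. For these genes the size of the mean rests on the array with HF1 in Cy3.

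Control genes differed from each other. Actb, beta-actin, was measured by 305 probes, of which 304 had a positive mean. It read 1.97 and 1.32, with routes of 1.75 and 1.60. Gapdh, a glycolytic enzyme measured by 257 probes, read 0.01 and -0.66, and 10 of its probes had a positive mean. A ratio within an array shows unequal change and not that either gene was constant. Because Actb lay beyond most genes on the positive side, its values stand beside those of Cd36 and the other leading genes, and its part in them was not tested.

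Other pairings of experiment 2 share the HF0 or the HF1 group, and possibly its extract, with the direct arrays, so their values are given side by side only. In HF3 over HF0, the 15 most positive genes ranged from 0.45 to 2.78, with a median of 1.91. In HF4 over HF0, their median was 0.16 and 11 of the 15 lay within 0.5 of 0. Cd36 was 1.94 in HF3 over HF0 and -0.46 in HF4 over HF0, and Actb was 1.35 and -0.27. In HF1 over HF1-REV, Cd36 was -0.60 and Actb -0.07. Thrsp and Retn, by contrast, were 0.67 and 0.13 in HF3 over HF0, and 0.48 and 0.23 in HF4 over HF0. In HF0 over STD, Thrsp, Retn, Scd1 and Kdr lay at -1.45, -1.46, -1.55 and -1.21 in experiment 2, the opposite side from HF1 over HF0; both pairings hold HF0. In experiment 1 they lay at -0.28, -0.57, 0.14 and 0.13. Sfrp4, Arg1, Mcpt4 and Hilpda lay at 2.61, 2.15, 1.77 and 1.30 in HF0 over STD of experiment 2, and at 0.92, -0.51, -0.30 and -1.03 in experiment 1, so that Sfrp4 alone of these 4 kept its side. S100a8 and S100a9 were -1.59 and -1.68 in HF3 over HF0 and -1.52 and -1.63 in HF4 over HF0.

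**Figure D5:**
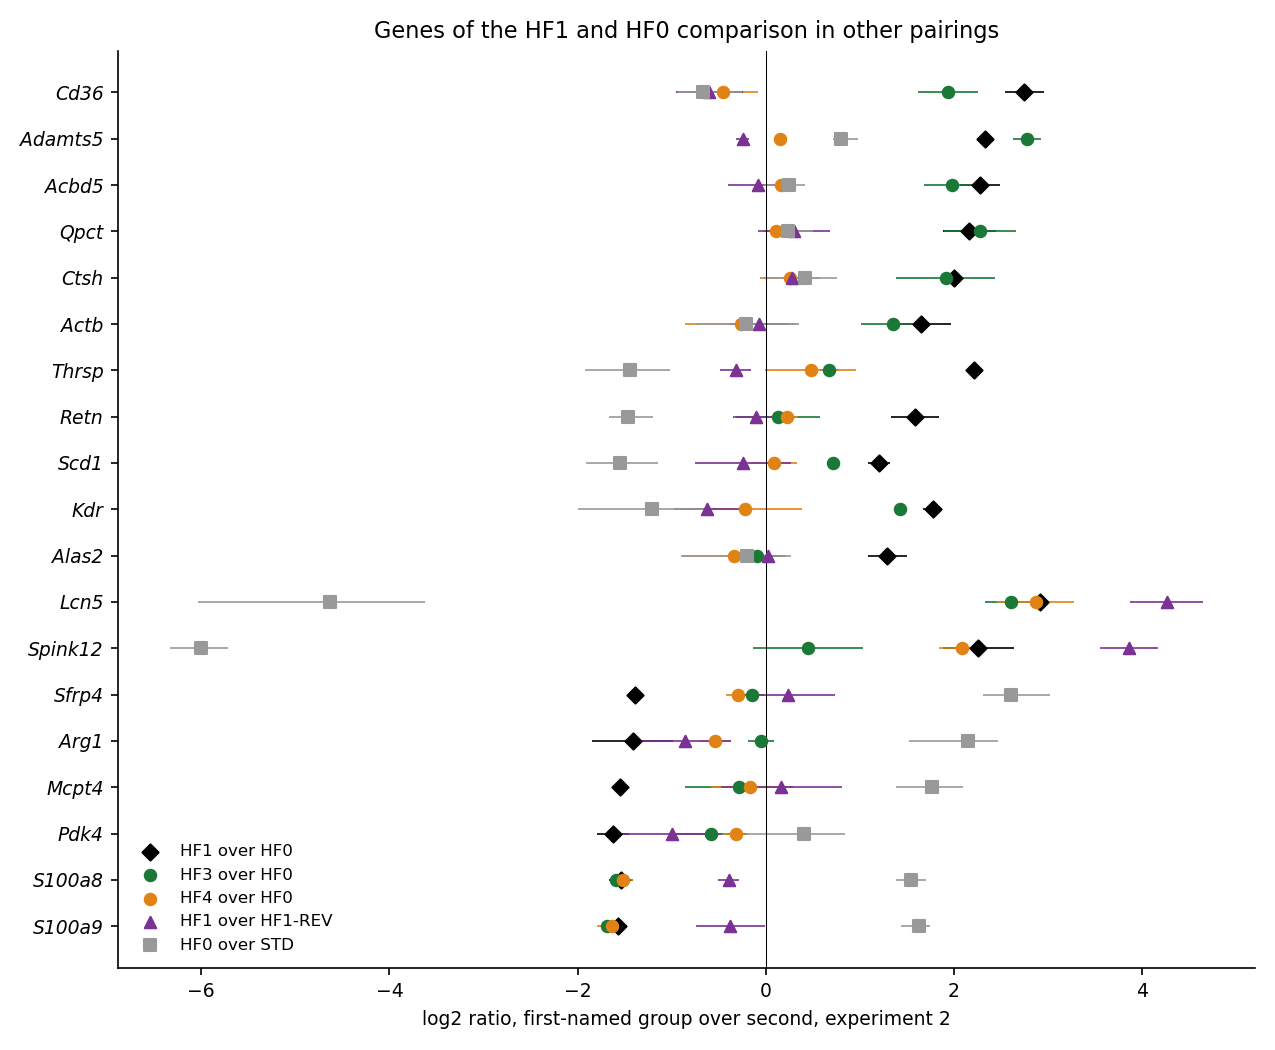
Log2 ratios of 19 genes in HF1 over HF0 and in 4 other pairings of experiment 2, with lines from the lowest to the highest array of a pairing. Cd36 to Actb lie far to the right in HF1 and HF3 over HF0 and near 0 in HF4 over HF0, while S100a8 and S100a9 lie at about the same value in HF1, HF3 and HF4 over HF0; these pairings share the HF0 group.

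Transcripts of neighbouring organs were present among the leading genes. Lcn5, an epididymal lipocalin that binds retinoids, was the most positive of all genes at 2.90 and 2.92. Spink12, a protease inhibitor of the epididymis, read 1.88 and 2.64, and the beta-defensins Defb12 and Defb15 had means of 2.09 and 2.00. Of 26 measured epididymis markers, 5 were counted as positive and 1 as negative, with a median of 0.16. Cst11, Svs5 and Adam28, also on that list, lay near 0 on both arrays, between -0.20 and -0.02. The epididymal values lay further from 0 in HF0 over STD: Lcn5 was -4.63 and Spink12 -6.01 in experiment 2, and -3.97 and -3.27 in experiment 1. In HF1 over HF1-REV they were 4.26 and 3.86. Lcn5 was 2.60 in HF3 over HF0 and 2.87 in HF4 over HF0, near its value here, and Spink12 was 0.45 and 2.09. Male germ cell markers stayed near 0 here. Of 40, 1 was counted on each side, Odf1 at a mean of 1.13 and Meig1 at -0.67, and the protamine gene Prm1 read -0.13 and 0.53, while Tnp1, a transition protein, read -0.24 and 0.26. In HF4 over HF0, Prm1 was 5.05. The deposited values are ratios, so no level of these transcripts in either extract can be given, and their part in the other differences was not tested.

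Of the other cell types that such a sample can hold, smooth muscle and pericyte markers were counted as positive in 2 of 12 cases, Mylk and Tagln, with means of 1.14 and 0.79. Mesothelium had 1 negative of 11, Krt18 at a mean of -0.78, skeletal muscle 1 of 14, Tnnt3 at -0.72, and nerve and Schwann cells 2 of 10, Egr2 and Mbp, the latter at -0.86. Leydig cell genes had 1 negative of 8, Star at -0.78. These lists had medians between -0.18 and -0.07.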

How the data were processed

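The authors deposited log ratios, 1 per probe and array, read here as log2; the sources used here give no log base, background correction or normalization. The highest value, 7.99, exceeds the 4.82 that log10 of 16-bit intensities allows, which leaves a natural log possible; the closing section gives the counts on that reading. No intensities were used here, so the number of arrays limits the precision. Of 25344 probes, 21082 had 1 symbol in the platform annotation, 30 several and 4232 none. 20456 symbols were updated through the gene ID. Arrays were median-centred, probes of a gene averaged, and ratios turned to HF1 over HF0. A dye swap counts as 1 replicate, so no test was run. Values were computed with pandas 2.3.3 and numpy 2.4.6 (Python 3.11.15), drawn with matplotlib 3.10.9 and checked on simulated data. All 4 genes whose promoters are shown matched RefSeq by symbol. The genes named were the 15 most extreme on each side among those past 0.5 on both arrays, up to 4 counted members per side of each of 39 lists, 30 marker genes and the 5 with the widest gap; others were named for their lists' sake after their values were seen. The lists, like the choice of comparison, were made with earlier results of these data known. Alternatives were other scalings, routes, thresholds and single arrays.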

Additional observations from a re-analysis of the deposited data

Results flagged for a closer look

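Of 39 gene lists, the medians of 11 lay on opposite sides of 0 in HF1 over HF0 and HF4 over HF3 on every array. These pairings share no group and the difference was not tested. In both pairings the arrays are a dye swap. Medians of smooth muscle, mesothelium, recruited macrophages, Leydig cells and inflammatory cytokines lay on the negative side on every array of both pairings. Epididymis lay on the positive side on every array. The remaining lists lay on both sides within a pairing. Among the 11, blood vessel endothelium had a median of 0.43 in HF1 over HF0 and -0.36 in HF4 over HF3. Antigen presentation had 0.35 and -0.46, and resident macrophages 0.21 and -0.37. Redox and glutathione genes had 0.17 and -0.28. Interferon response genes had 0.11 and -0.21, and hypoxia and glycolysis genes 0.10 and -0.40. De novo lipogenesis had 0.091 and -0.15, matrix proteases and inhibitors 0.090 and -0.32, and cholesterol synthesis 0.076 and -0.14. Insulin signalling genes had 0.067 and -0.13. Some of these medians turned sign by other routes to HF1 over HF0. Insulin signalling was -0.058 through HF3 and -0.044 with HF0 of experiment 1. With HF0 of experiment 1, hypoxia and glycolysis was -0.098 and matrix proteases and inhibitors -0.049. Nerve and Schwann cell genes ran the other way, with -0.086 and 0.14. The 15 most positive genes of HF1 over HF0, except Lcn5, Defb12 and Defb15, also lay on the negative side in HF4 over HF3. Adamts5 was -2.58 there and Serp1 -1.98. The lists may thus not be separate observations, and whether they and these genes follow a shared pattern was not tested.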

How the results depend on the processing

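Over features, 852 were counted on the positive side and 786 on the negative. Scale or quantile normalization, probe medians, no centring and subtraction of the dye effect gave 826 to 969 positive and 781 to 852 negative. The subtraction was chosen after seeing the data. Leaving out either array gave 2304 to 3356 positive and 2776 to 3238 negative. The route through HF3 gave 2366 and 2454, the route through HF4 2855 and 1865, least squares over 12 arrays 1578 and 1216, and HF0 of experiment 1 1692 and 1269. A threshold of 1 gave 200 and 59, the mean alone 1708 and 1965, and natural logs converted to base 2 1443 and 1519. Of the 1469 counted genes with a symbol, 52 had the opposite sign through HF3, 103 through HF4 and 133 with HF0 of experiment 1. Among the 169 of them named by the rule, these were the following. Through HF3, Baat was 0.054, Oscp1 0.30, Gstm1 -0.074 and Ccnb2 -0.091. Through HF4, 5730596B20Rik was 0.16, Plin2 0.17, Laptm5 0.073, Trem2 0.032, Meig1 0.30, Cxcl14 0.042, Cyp2d9 -0.51 and Gstm1 -0.23. With HF0 of experiment 1, 5730596B20Rik was 0.20, Adamts1 -0.29, Cyp2d9 -0.17, Cyp2j6 0.094, Gstm1 -0.045 and Gclc -0.033. The cause was not tested. Of 39 list medians, 7 turned sign with only the array with HF1 in Cy3 and 4 with only the other, 7 through HF3, 11 through HF4, 7 under least squares, 9 with HF0 of experiment 1, and 1, the respiratory chain, under scale and quantile normalization. Of the 10 medians beyond 0.2, the ribosomal proteins turned, on the array with HF1 in Cy3, and the other 9 did not under these settings. No paired analysis was possible because the labels carry no replicate numbers and no test was run.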

Other observations

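Redox genes held 7 members on the positive side and 1 on the negative of 32. Gpx1, the glutathione peroxidase of the cytosol, read 1.44 and 2.15, and Txnip, an inhibitor of thioredoxin, read 1.27 and 1.39. Cyp2e1, which oxidizes ethanol and fatty acids, read 1.16 and 1.68. Alox5ap, which hands arachidonate to the leukotriene pathway, read 1.79 on both arrays, whereas Ptgs2, the inducible prostaglandin synthase, read -1.08 and -0.78. Hif1a, the oxygen-regulated transcription factor, read 0.85 and 1.74, and Hk2, a hexokinase, read -1.14 and -1.06.

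The cell cycle list had 4 of 26 genes on the positive side and 0 on the negative. Cdkn2c, Ccnd1, Top2a and Ccnb2 had means of 1.06, 0.98, 0.92 and 0.62. Of the heat shock and unfolded protein genes, 4 were positive and 3 negative of 29. Hspa1b read 1.33 and 1.13, and its co-chaperone Bag3 read -1.66 and -0.69.

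Some other lists were small or split. Acute phase and complement genes had 2 positive and 3 negative of 18, with C1ra at -1.55 and -0.64. Chemokines and receptors had 2 and 3 of 29, with Ccl4 at 1.03 and 1.45 and Ccr7 at -0.62 and -0.93. Cytochrome P450 genes had 3 and 3 of 24, and genes of prostanoids and leukotrienes 2 and 2 of 24. Hypoxia and glycolysis had 3 and 1 of 25, ribosomal proteins 1 and 1 of 29, and insulin signalling 0 and 1 of 25, Igfbp6 at -0.66 and -0.93.

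The widest gaps between the arrays belonged to Bmp8a, at -3.90 with HF1 in Cy5 and 4.72 with HF1 in Cy3, and to 4930509E16Rik, at 1.08 and -3.84. The dye effect on the other 20 arrays was -4.05 for Bmp8a and 1.05 for 4930509E16Rik.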
